A study of Mus musculus with 8 samples.

Results

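Cytokine and chemokine receptor genes were examined in 4 acute leukaemias and 4 normal bone marrow populations of the mouse. Members were taken by gene symbol, as genes that begin with Il, a number and r, with Ccr or Cxcr and a number, with Csf1r, Csf2r or Csf3r, or with Ifnar, Ifngr or Ifnlr. This took 62 of the 16434 genes in the deposited table. The symbol rule also took Il1rn, which encodes a secreted antagonist of the IL-1 receptor and not a receptor, and Il22ra2, a soluble decoy for IL-22.

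Most interleukin and colony-stimulating factor receptors are built from a chain that recognises the ligand and a shared chain that signals through JAK kinases and STAT factors. The common gamma chain serves IL-2, IL-4, IL-7, IL-9, IL-15 and IL-21 in lymphocytes, and the common beta chain serves IL-3, IL-5 and GM-CSF in myeloid cells. Receptors of the IL-1 and IL-17 families signal through adaptors that lead to NF-kappaB, and chemokine receptors couple to G proteins and steer cells to and from the marrow, where Cxcr4 retains them.

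The leukaemias were described by the labels as arising with N-Myc overexpression. Sorting for GFP and surface antigens gave acute lymphoblastic leukaemia of the B lineage (B-ALL; B220+GFP+) and of the T lineage (T-ALL; CD3+GFP+), a myeloid leukaemia (AML; Mac1+Gr1+GFP+) and an undifferentiated one (AUL), GFP+ and lacking B220, CD3, Mac1 and Gr1. Their counterparts were normal B (B220+), T (CD3+), myeloid (Mac1+Gr1+) and lineage-negative cells of the same gates. All 8 groups were bone marrow of C57BL/6 mice aged 8-10 weeks and had 1 library each. The labels used here do not say how N-Myc was delivered or how many mice a library holds.

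Totals recovered from the deposited values were 33818615 to 43206624 fragments in the leukaemias and 37000630 to 52280282 in the normal libraries. Levels are FPKM, fragments scaled by transcript length and library total, so they can be set beside each other between genes. Marker genes followed the B and T gates: Cd79a, part of the B cell receptor, was 590 FPKM in the B-ALL library and 1121 in normal B cells, and Cd3e was 180.1 FPKM in T-ALL and 221 in normal T cells. The 7 neutrophil markers summed to 176632 FPKM in normal myeloid cells. They did not single out AML among the leukaemias, at 10146 FPKM in AML and 11359 in B-ALL. The AUL library, sorted as CD3-negative, held Cd3e at 57.4 FPKM, and its 6 T cell markers summed to 1714 FPKM against 50.6 in normal lineage-negative cells. The normal gates held other cells too: in the normal T library 5 basophil and mast cell markers summed to 516 FPKM and 5 NK cell markers to 370 FPKM, and in the normal lineage-negative library the basophil and mast cell markers summed to 2567 FPKM. The 6 B cell markers summed to 5.88 (T-ALL), 3.83 (AML) and 3.65 FPKM (AUL), against 630.3 in normal T, 36.6 in normal myeloid and 649.7 in normal lineage-negative cells. In these bulk samples, fewer cells that carry a receptor and less receptor RNA per cell cannot be told apart.

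Receptor genes took a smaller share of the transcriptome in each leukaemia than in each normal population. Summed over the 62 genes, FPKM came to 769 in B-ALL, 1044 for T-ALL, 802 in AML and 1268 in AUL, against 1695 in normal B, 2540 in normal T, 3576 in normal myeloid and 1827 in normal lineage-negative cells. The sum in the normal cells was 2.2 times that in B-ALL, 2.43 times that in T-ALL, 4.46 times that in AML and 1.44 times that in AUL. Much of the myeloid sum lay in a pair of genes, Csf3r at 947 FPKM and Csf2ra at 534 FPKM. A leukaemia held the highest level of 12 receptor genes, 6 of them in T-ALL, 5 in AML, 1 in AUL and 0 in B-ALL. A normal library held the highest level of the other 50, or 80.7%, whereas it did so for 51.2% of all listed genes.

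**Figure D1:**
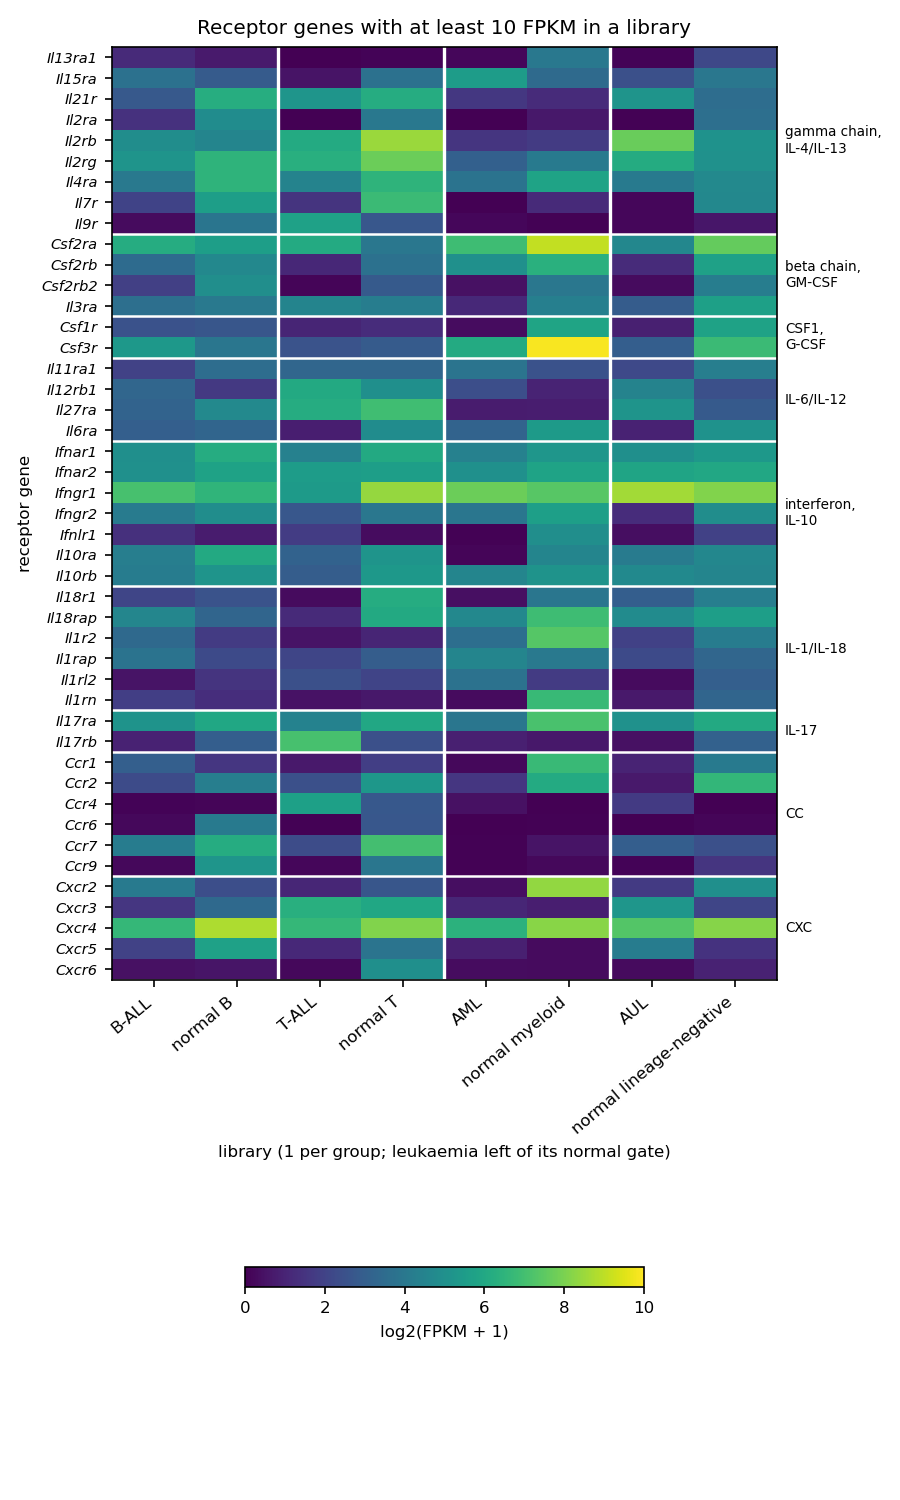
Levels of 45 receptor genes with at least 10 FPKM in some library, as log2(FPKM + 1), in 8 libraries (1 per group), each leukaemia left of the normal cells of its gate and genes grouped by receptor class. The brightest cells are Csf3r (947 FPKM) and Csf2ra (534 FPKM) in normal myeloid cells, and Ifngr1 and Cxcr4 are bright in all 8 columns.

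Each leukaemia was set against the normal cells of its gate, the comparison that the sorting implies. A gene was called when log2(FPKM + 1) differed by at least 1, a 2-fold change, with at least 1 FPKM in the higher library. With 1 library per group these calls cannot be checked against replicates and carry no p-value. In B-ALL 7 of the 48 receptor genes that could be called were higher and 23 were lower, where 18.2% of all such genes were higher and 21.9% lower. In T-ALL 7 of 52 were higher and 32 lower, beside 22.1% and 24% of all genes. In AML 5 of 42 were higher and 28 lower, beside 43.3% and 26.7%. In AUL 8 of 51 were higher and 32 lower, beside 13.6% and 29.5%. Shares of receptor genes called lower, 47.9% (B-ALL), 61.5% (T-ALL), 66.7% (AML) and 62.7% (AUL), were thus all above the background, and those called higher were below it in B-ALL, T-ALL and AML and above it in AUL. The median difference over all 62 genes was -0.33 (B-ALL), -1.19 (T-ALL), -0.61 (AML) and -1.02 (AUL), where that of all listed genes lay between -0.07 and 0.01. Median-ratio scaling moved the median of all genes that could be called in AML from 0.56 to -0.35, and with it the share of AML calls that were higher from 61.82% to 40.02%; receptor calls in AML then became 2 higher and 31 lower.

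**Figure D2:**
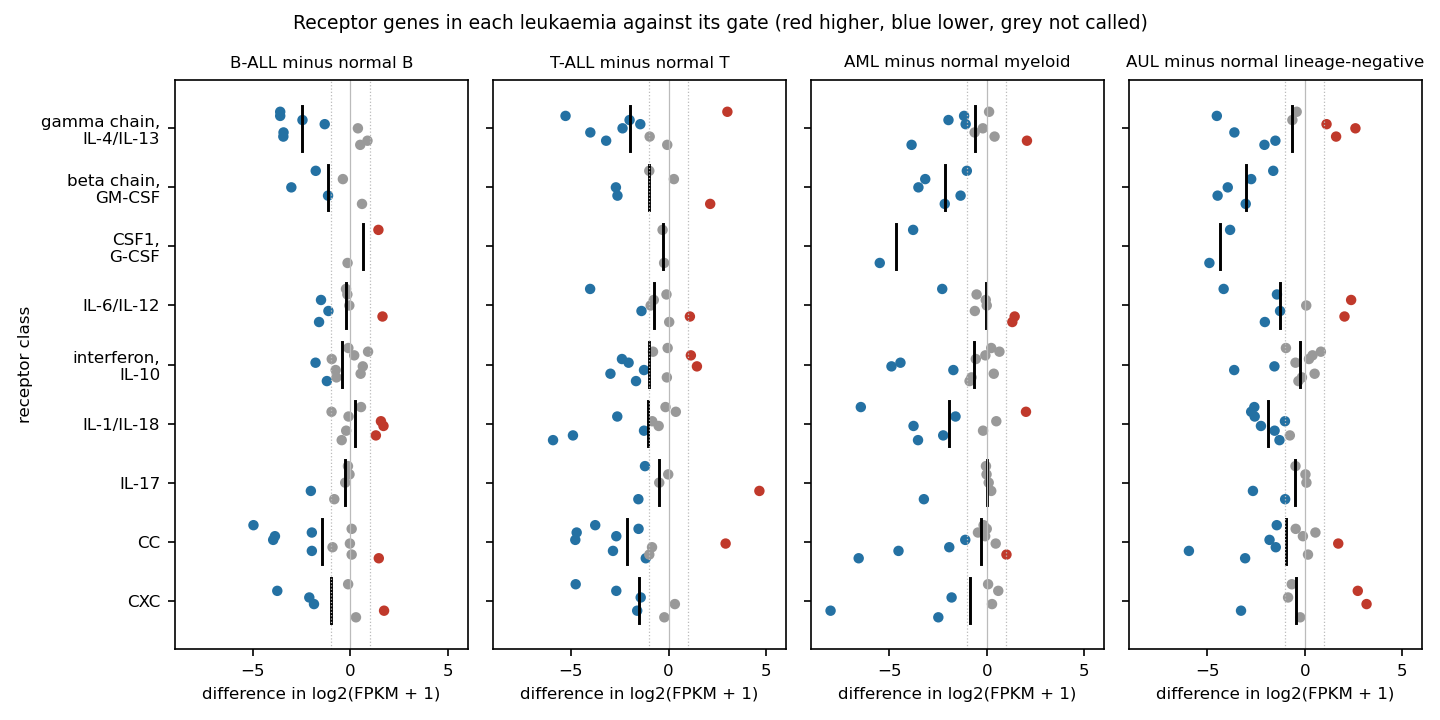
Differences in log2(FPKM + 1) of the 62 receptor genes, leukaemia minus the normal cells of its gate, by receptor class, with 1 point per gene, red for genes called higher, blue for genes called lower, grey for others and a black bar at the class median. Blue points outnumber red ones in each panel: 23 against 7 in B-ALL, 32 against 7 in T-ALL, 28 against 5 in AML and 32 against 8 in AUL.

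Some receptor genes were lower in every leukaemia. Ccr2, Csf2rb, Csf2rb2 and Il7r were among the 5 called lower in 4 of 4 gates, a pattern that 2.59% of the listed genes had. A further 12 were lower in 3 gates and higher in none, as were 5.06% of listed genes: Ccr9, Cxcr4, Ifngr2, Il10ra, Il12rb2, Il17ra, Il18r1, Il1rl1, Il2ra, Il4ra, Il5ra and Il6ra. One gene, Il12rb1, was higher in 4 of 4 gates, where 1.72% of listed genes were. Another 19 were higher in some gate and lower in another, a pattern of 6.86% of listed genes.

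A single fit over the 4 gates, limma on log2(FPKM + 1) with the gate as a block, asked which differences leukaemias shared. It called 1.26% of 11071 genes higher and 2.42% lower at an adjusted p of 0.05, and 52 receptor genes were tested. None of the receptor genes rose and 4 fell. At an unadjusted p of 0.05, 22 receptor genes were lower and 1 was higher, where 17.8% of all genes tested were lower and 17.6% higher. Csf2rb2 fell by 3.29 ± 0.45 on the log2 scale (SE, 4 pairs; limma, adjusted p = 0.0326). Ccr2 fell by 3.82 ± 0.67 (limma, adjusted p = 0.0418), Il7r fell by 3.64 ± 0.70 (limma, adjusted p = 0.0428) and Il2ra fell by 2.92 ± 0.63 (limma, adjusted p = 0.0499). All 4 were lower in 4 of 4 pairs. Just outside the threshold lay Il4ra with an adjusted p of 0.0543, Cxcr4 with 0.0547, Csf2rb with 0.0601 and Il12rb1 with 0.0641, and it is not shown that these did not differ. The 4 calls were lost when the T, the myeloid or the lineage-negative pair was left out, with 0 receptor genes lower each time. Leaving out the B pair kept Ccr2 (limma, adjusted p = 0.0192) and Csf2rb2 (limma, adjusted p = 0.0358). It lost Il7r (limma, adjusted p = 0.0606) and Il2ra (limma, adjusted p = 0.0791), and Il6ra was then called lower (limma, adjusted p = 0.0367). Without the gate as a block 1 was lower, Ccr2, with an adjusted p of 0.0390.

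For the 4 genes that fell, differences in log2(FPKM + 1) followed different orders. Ccr2 was lowest relative to its gate in AUL, and Il7r and Il2ra in T-ALL. As a fold without the pseudocount, Il7r was lowest in AUL, at 191-fold below its gate, against 59.1-fold in T-ALL. Promoter windows of these 4 genes are shown because the fit called them over the gates. They hold 250 bases before and 50 after the transcription start, from RefSeq on GRCm38.p6, at chr15:78305672-78305971 on the minus strand (Csf2rb2), chr9:124101933-124102232 on the plus strand (Ccr2), chr15:9529827-9530126 on the minus strand (Il7r) and chr2:11642542-11642841 on the plus strand (Il2ra). Capitals mark matches on either strand to 3 motifs, CACGTG (the E-box that MYC proteins bind), TTCNNNGAA (the STAT type) and GAGGAA (the PU.1 type).
Csf2rb2: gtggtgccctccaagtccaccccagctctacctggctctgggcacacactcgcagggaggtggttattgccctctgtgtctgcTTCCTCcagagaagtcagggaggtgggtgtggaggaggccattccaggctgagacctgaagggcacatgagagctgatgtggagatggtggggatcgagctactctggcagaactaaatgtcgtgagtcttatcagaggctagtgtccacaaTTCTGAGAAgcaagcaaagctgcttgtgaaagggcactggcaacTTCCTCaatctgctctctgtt
Ccr2: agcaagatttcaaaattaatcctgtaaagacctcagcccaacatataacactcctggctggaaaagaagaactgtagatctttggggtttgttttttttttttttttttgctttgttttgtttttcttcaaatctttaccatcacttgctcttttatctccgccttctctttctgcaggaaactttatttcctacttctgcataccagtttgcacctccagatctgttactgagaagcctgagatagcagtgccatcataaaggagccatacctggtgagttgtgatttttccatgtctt
Il7r: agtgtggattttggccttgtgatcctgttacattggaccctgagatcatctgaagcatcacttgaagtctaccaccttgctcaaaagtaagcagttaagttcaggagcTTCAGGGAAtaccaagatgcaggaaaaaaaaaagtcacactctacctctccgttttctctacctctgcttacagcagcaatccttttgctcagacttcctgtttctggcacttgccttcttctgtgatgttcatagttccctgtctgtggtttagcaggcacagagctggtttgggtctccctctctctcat
Il2ra: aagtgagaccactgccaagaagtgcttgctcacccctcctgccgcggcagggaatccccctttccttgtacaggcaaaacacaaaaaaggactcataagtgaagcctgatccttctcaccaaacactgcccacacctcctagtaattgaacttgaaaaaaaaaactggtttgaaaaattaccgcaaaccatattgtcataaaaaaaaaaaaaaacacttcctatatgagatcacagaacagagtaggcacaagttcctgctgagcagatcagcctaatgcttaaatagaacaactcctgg
The Csf2rb2 window held 1 STAT-type and 2 PU.1-type matches, the Il7r window 1 STAT-type match, and the Ccr2 and Il2ra windows 0 of either. Over the 58 windows of the 49 receptor genes, of 62, with an entry, CACGTG was in 3.45%, TTCNNNGAA in 15.5% and GAGGAA in 32.8%, whereas over all 32851 windows the shares were 7.15%, 8.30% and 28.3%. CACGTG was in the windows of Il1r2 and Il6ra. These matches describe the letters only.

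Among receptors of the common gamma chain family and the related IL-4 and IL-13 receptors, 9 genes of 10 were listed. Of these, 9 (B-ALL), 8 (T-ALL), 7 (AML) and 8 (AUL) could be called. None was higher and 6 were lower in B-ALL, and 1 was higher and 6 lower in T-ALL. In AML 1 was higher and 4 lower, and in AUL 3 were higher and 4 lower. Of all genes that could be called, 18.2% were higher and 21.9% lower in B-ALL, and 22.1% and 24% in T-ALL. In AML 43.3% were higher and 26.7% lower, and in AUL 13.6% and 29.5%. The class counts below are to be read beside these shares. Il7r, the chain for IL-7 on which early lymphocytes depend, had 3.05 FPKM in B-ALL, 1.87 FPKM in T-ALL, 0.0147 FPKM in AML and 0.129 FPKM in AUL, against 48 FPKM in normal B, 110.5 in normal T, 1.27 in normal myeloid and 24.7 in normal lineage-negative cells. The 4 leukaemias lay below the normal library of their gate, and B-ALL and T-ALL lay above normal myeloid cells. In B-ALL Il7r was 15.7-fold (14 to 17.8) lower (95% counting interval) and in T-ALL 59.1-fold (51 to 68.9) lower, whereas in AML it rested on 1 fragment. In AUL it was 191-fold (101.5 to 390.6) lower, on 10 fragments. Il2ra, the high-affinity chain of the IL-2 receptor (CD25), had 1.66 FPKM in B-ALL, 0.0117 FPKM in T-ALL, 0.012 FPKM in AML and 0.0299 FPKM in AUL, against 27.8 FPKM in normal B, 15.2 in normal T, 0.552 in normal myeloid and 11.6 in normal lineage-negative cells. It was close to undetected in T-ALL, AML and AUL, with 1, 1 and 2 fragments. Il2rb, the signalling chain shared by IL-2 and IL-15, had 29.2 FPKM in B-ALL, 68.9 FPKM in T-ALL, 1.92 FPKM in AML and 207 FPKM in AUL, against 22.2 FPKM in normal B, 358 in normal T, 2.36 in normal myeloid and 33.6 in normal lineage-negative cells. Unlike Il2ra, Il2rb was 6.15-fold (5.96 to 6.35) higher in AUL. Like Il2ra it was lower in T-ALL, by 5.2-fold (5.08 to 5.32).

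Il2rg, the common gamma chain itself, had 35.6 FPKM in B-ALL, 77.8 FPKM in T-ALL, 7.27 FPKM in AML and 70.3 FPKM in AUL, against 90.2 FPKM in normal B, 214 in normal T, 16.5 in normal myeloid and 32.1 in normal lineage-negative cells. It was higher in AUL and lower in the other 3, and 26% of its 75-base words are shared with the overlapping gene Gm20489. Il21r, the IL-21 receptor, had 5.88 FPKM in B-ALL, 36.5 FPKM in T-ALL, 2.08 FPKM in AML and 35 FPKM in AUL, against 73.5 FPKM in normal B, 72.3 in normal T, 1.34 in normal myeloid and 10.9 in normal lineage-negative cells. It was 12.5-fold (11.4 to 13.7) lower in B-ALL and 3.23-fold (3.0 to 3.47) higher in AUL. Il4ra, the chain for IL-4 and IL-13, had 15.4 FPKM in B-ALL, 21.4 FPKM in T-ALL, 13.2 FPKM in AML and 15.9 FPKM in AUL, against 89.3 FPKM in normal B, 88.6 in normal T, 54.3 in normal myeloid and 25.4 in normal lineage-negative cells. The 4 leukaemias lay between 13.2 and 21.4 FPKM, all under the 4 normal libraries, of which the lowest was normal lineage-negative cells. How many of all genes separate in this way was not counted, here or for the genes below. Il9r, the IL-9 receptor, had 0.219 FPKM in B-ALL, 51.4 FPKM in T-ALL, 0.127 FPKM in AML and 0.132 FPKM in AUL, against 13.8 FPKM in normal B, 5.51 in normal T, 0.0342 in normal myeloid and 0.513 in normal lineage-negative cells. In T-ALL it was 9.33-fold (8.47 to 10.3) higher, and in B-ALL 63-fold (41 to 102) lower. Il15ra, which presents IL-15, had 12.2 FPKM in B-ALL, 0.443 FPKM in T-ALL, 44.6 FPKM in AML and 4.5 FPKM in AUL, against 6.24 FPKM in normal B, 12.2 in normal T, 9.97 in normal myeloid and 14.7 in normal lineage-negative cells. Only AML lay above all 4 normal libraries, at 4.48-fold (4.09 to 4.91) over its own gate, and T-ALL lay below all of them. Il13ra1, the second chain of the type II IL-4 receptor, had 1.31 FPKM in B-ALL, 0.0249 FPKM in T-ALL, 0.115 FPKM in AML and 0.0558 FPKM in AUL, against 0.635 FPKM in normal B, 0.0728 in normal T, 15.1 in normal myeloid and 3.44 in normal lineage-negative cells, so that it was found mainly in normal myeloid cells.

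Among receptors of the common beta chain family, all 5 genes were listed, and 5 could be called in each gate except T-ALL, with 4. In B-ALL, AML and AUL 0 were higher. B-ALL had 3 lower, T-ALL 2 lower and 1 higher, and AML and AUL 5 lower each. Csf2rb, the beta chain shared by IL-3, IL-5 and GM-CSF, had 10.4 FPKM in B-ALL, 1.15 FPKM in T-ALL, 31.3 FPKM in AML and 1.37 FPKM in AUL, against 24.3 FPKM in normal B, 12.2 in normal T, 80.5 in normal myeloid and 51.5 in normal lineage-negative cells. Its mouse paralogue Csf2rb2, which serves IL-3 alone, had 2.73 FPKM in B-ALL, 0.0954 FPKM in T-ALL, 0.369 FPKM in AML and 0.218 FPKM in AUL, against 29.5 FPKM in normal B, 6.1 in normal T, 14.5 in normal myeloid and 17.8 in normal lineage-negative cells. The leukaemias lay at 0.0954 to 2.73 FPKM and the normal libraries at 6.1 to 29.5 FPKM, with no overlap. The fit had picked Csf2rb2 from these same libraries, so this separation is no further support. The 2 genes share sequence, 10.6% of the 75-base words of Csf2rb2 and 7.15% of those of Csf2rb, so their counts are not fully separate. Csf2ra, the alpha chain for GM-CSF, had 71.9 FPKM in B-ALL, 67.4 FPKM in T-ALL, 119 FPKM in AML and 23.6 FPKM in AUL, against 47.4 FPKM in normal B, 14.7 in normal T, 534 in normal myeloid and 200 in normal lineage-negative cells. It was 4.6-fold (4.22 to 5.02) higher in T-ALL, and 8.47-fold (7.91 to 9.07) lower in AUL. Il3ra, the alpha chain for IL-3, had 11.6 FPKM in B-ALL, 21.8 FPKM in T-ALL, 1.22 FPKM in AML and 6.62 FPKM in AUL, against 15.5 FPKM in normal B, 17.9 in normal T, 18.7 in normal myeloid and 50.1 in normal lineage-negative cells. It was 15.3-fold (11.7 to 20.3) lower in AML. Il5ra, the alpha chain for IL-5, was under 10 FPKM throughout and was listed at 0 in T-ALL, AML and AUL, against 0.988 to 8.03 FPKM in the 4 normal libraries.

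Beside the beta chain genes, basophil and mast cell markers summed to 24.3 FPKM in B-ALL, 1.72 FPKM in T-ALL, 31.9 FPKM in AML and 4.24 in AUL, against 159 in normal B, 516 in normal T, 177 in normal myeloid and 2567 in normal lineage-negative cells. Eosinophil markers summed to 145 FPKM in B-ALL, 2.85 FPKM in T-ALL, 13.1 FPKM in AML and 15.8 in AUL, against 120 in normal B, 26.6 in normal T, 200.3 in normal myeloid and 1404 in normal lineage-negative cells. Both cell types carry receptors of this family, and their part in the differences was not tested.

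Csf3r, the receptor for G-CSF that drives neutrophil output, had 39.8 FPKM in B-ALL, 4.88 FPKM in T-ALL, 68.3 FPKM in AML and 7.0 FPKM in AUL, against 14.1 FPKM in normal B, 6.29 in normal T, 947 in normal myeloid and 113 in normal lineage-negative cells. It was 13.9-fold (13.5 to 14.2) lower in AML, and 2.82-fold (2.64 to 3.02) higher in B-ALL. Csf1r, the receptor for CSF1 on monocytes and macrophages, had 4.72 FPKM in B-ALL, 1.05 FPKM in T-ALL, 0.276 FPKM in AML and 0.849 FPKM in AUL, against 5.35 FPKM in normal B, 1.4 in normal T, 56.1 in normal myeloid and 53.7 in normal lineage-negative cells, and overlaps Hmgxb3 on the other strand. It was 204-fold (136 to 316) lower in AML and 63.3-fold (48.7 to 82.8) lower in AUL, whereas B-ALL and T-ALL did not reach the 2-fold call. Neutrophil markers summed to 10146 FPKM in AML against 176632 in normal myeloid cells, to 2173 in AUL against 20215 in normal lineage-negative cells, and to 11359 in the B-ALL library against 2783 in normal B cells. Their part in these results was not tested.

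The IL-6 and IL-12 family had 7 of 8 genes listed, of which 5 (B-ALL), 5 (T-ALL), 3 (AML) and 6 (AUL) could be called. Calls in B-ALL were 1 higher and 3 lower, in T-ALL 1 and 2, in AML 2 and 1, and in AUL 2 and 4. Il12rb1, the chain shared by the IL-12 and IL-23 receptors, had 8.86 FPKM in B-ALL, 66.3 FPKM in T-ALL, 4.34 FPKM in AML and 21.1 FPKM in AUL, against 2.16 FPKM in normal B, 30.5 in normal T, 0.984 in normal myeloid and 4.43 in normal lineage-negative cells. Each leukaemia lay above the normal cells of its gate, at 4.11-fold (3.38 to 5.02) in B-ALL, while T-ALL was at 2.17-fold (2.05 to 2.3), AML at 4.41-fold (3.4 to 5.76) and AUL at 4.77-fold (4.19 to 5.45). Its partner Il12rb2, the IL-12 specific chain, was at 0.0917 FPKM in B-ALL, 0.686 FPKM in T-ALL, 0.0253 FPKM in AML and 0.201 in AUL, against 1.39 in normal B, 3.41 in normal T, 0.56 in normal myeloid and 1.9 in normal lineage-negative cells. The ratio of Il12rb1 to Il12rb2 was therefore 96.7 (B-ALL), 96.6 (T-ALL), 171 (AML) and 105 (AUL), against 1.55 in normal B, 8.96 in normal T, 1.76 in normal myeloid and 2.33 in normal lineage-negative cells. Il12rb2 shares 36.9% of its 75-base words with other genes, mostly Serbp1, and it rested on 3 fragments in AML, so its level is uncertain. Il23r, the IL-23 specific chain, was at 0 to 0.0475 FPKM in the leukaemias and reached 0.891 FPKM in normal T cells. Il31ra, the IL-31 receptor, was at most 0.904 FPKM in a leukaemia, AUL, and 4.13 FPKM in a normal library, the lineage-negative one.

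Il27ra, the IL-27 receptor, had 8.16 FPKM in B-ALL, 71.8 FPKM in T-ALL, 0.695 FPKM in AML and 35.5 FPKM in AUL, against 25.1 FPKM in normal B, 122 in normal T, 0.75 in normal myeloid and 6.04 in normal lineage-negative cells. It was 5.88-fold (5.36 to 6.46) higher in AUL and 3.08-fold (2.82 to 3.36) lower in B-ALL. Il6ra, the IL-6 receptor, had 7.17 FPKM in B-ALL, 0.78 FPKM in T-ALL, 7.99 FPKM in AML and 0.918 FPKM in AUL, against 8.56 FPKM in normal B, 27.9 in normal T, 42.8 in normal myeloid and 33.2 in normal lineage-negative cells. In T-ALL it was 35.7-fold (31 to 41.3) lower and in AUL 36.2-fold (31.3 to 42) lower. Il11ra1, the IL-11 receptor, had 2.93 FPKM in B-ALL, 8.98 FPKM in T-ALL, 13.2 FPKM in AML and 3.65 FPKM in AUL, against 11 FPKM in normal B, 8.79 in normal T, 4.75 in normal myeloid and 18.3 in normal lineage-negative cells, and 35.9% of its 75-base words occur in near copies (Gm13305 and Il11ra2), so its level is uncertain. Its highest leukaemia was AML and its lowest was B-ALL.

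Interferon and IL-10 family receptors had 10 of 11 genes listed, of which 8 (B-ALL), 9 (T-ALL), 8 (AML) and 8 (AUL) could be called. In B-ALL 2 were lower and 0 higher, and likewise in AUL, where 21.9% and 29.5% of all genes were lower. T-ALL had 2 higher and 5 lower, and AML 3 lower. Ifnar1 and Ifnar2 pair as the receptor for type I interferon. Ifnar1 had 30.7 FPKM in B-ALL, 20.1 FPKM in T-ALL, 19.9 FPKM in AML and 30.7 FPKM in AUL, against 72 FPKM in normal B, 66.3 in normal T, 37.5 in normal myeloid and 39 in normal lineage-negative cells. Ifnar2 had 31.7 FPKM in B-ALL, 44.7 FPKM in T-ALL, 31.4 FPKM in AML and 56.9 FPKM in AUL, against 53 FPKM in normal B, 47.6 in normal T, 54.5 in normal myeloid and 63.5 in normal lineage-negative cells. Ifnar2 was called in none of the gates, and Ifnar1 was lower in B-ALL and T-ALL. Ifngr1, the ligand-binding chain for interferon gamma, had 134 FPKM in B-ALL, 42.6 FPKM in T-ALL, 215 FPKM in AML and 389.7 FPKM in AUL, against 93.2 FPKM in normal B, 343 in normal T, 167 in normal myeloid and 274 in normal lineage-negative cells. In T-ALL it was 8.06-fold (7.68 to 8.46) lower, and in the other 3 it did not reach the call. Ifngr2, the signalling chain for interferon gamma, had 16.9 FPKM in B-ALL, 5.57 FPKM in T-ALL, 14.2 FPKM in AML and 1.42 FPKM in AUL, against 29.3 FPKM in normal B, 14.7 in normal T, 48.9 in normal myeloid and 28.8 in normal lineage-negative cells. AUL was at 20.2-fold (16.7 to 24.8) below normal lineage-negative cells while its Ifngr1 was the highest of the 8 libraries, so the ratio of Ifngr1 to Ifngr2 was 274 in AUL against 9.54 in normal lineage-negative cells and 3.18 to 23.4 in the other normal libraries. In B-ALL, T-ALL and AML this ratio was 7.91, 7.64 and 15.2.

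Il10ra, the IL-10 binding chain, had 18.2 FPKM in B-ALL, 7.73 FPKM in T-ALL, 0.0953 FPKM in AML and 17 FPKM in AUL, against 65.5 FPKM in normal B, 35.2 in normal T, 22.5 in normal myeloid and 24 in normal lineage-negative cells. It was 236-fold (138 to 444) lower in AML, and AUL did not reach the call. Il10rb, the chain it shares with IL-22 and interferon lambda receptors, had 17.4 FPKM in B-ALL, 6.68 FPKM in T-ALL, 22.6 FPKM in AML and 25.9 FPKM in AUL, against 34.8 FPKM in normal B, 39.3 in normal T, 34 in normal myeloid and 22.2 in normal lineage-negative cells. In AML Il10rb was within 2-fold of normal myeloid cells, so Il10ra over Il10rb was 0.00421 in AML and 0.663 in normal myeloid cells. Il10rb and Ifnar2 overlap Gm21970 on the same strand. Ifnlr1, the interferon lambda receptor, had 1.63 FPKM in B-ALL, 2.42 FPKM in T-ALL, 0.0283 FPKM in AML and 0.29 FPKM in AUL, against 0.701 FPKM in normal B, 0.252 in normal T, 29.3 in normal myeloid and 2.8 in normal lineage-negative cells. It was the most lowered of the class in AML, at 5 fragments, and 9.62-fold (6.92 to 13.7) higher in T-ALL. Il20ra, Il20rb and Il22ra2 stayed under 4 FPKM in all 8 libraries.

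**Figure D3:**
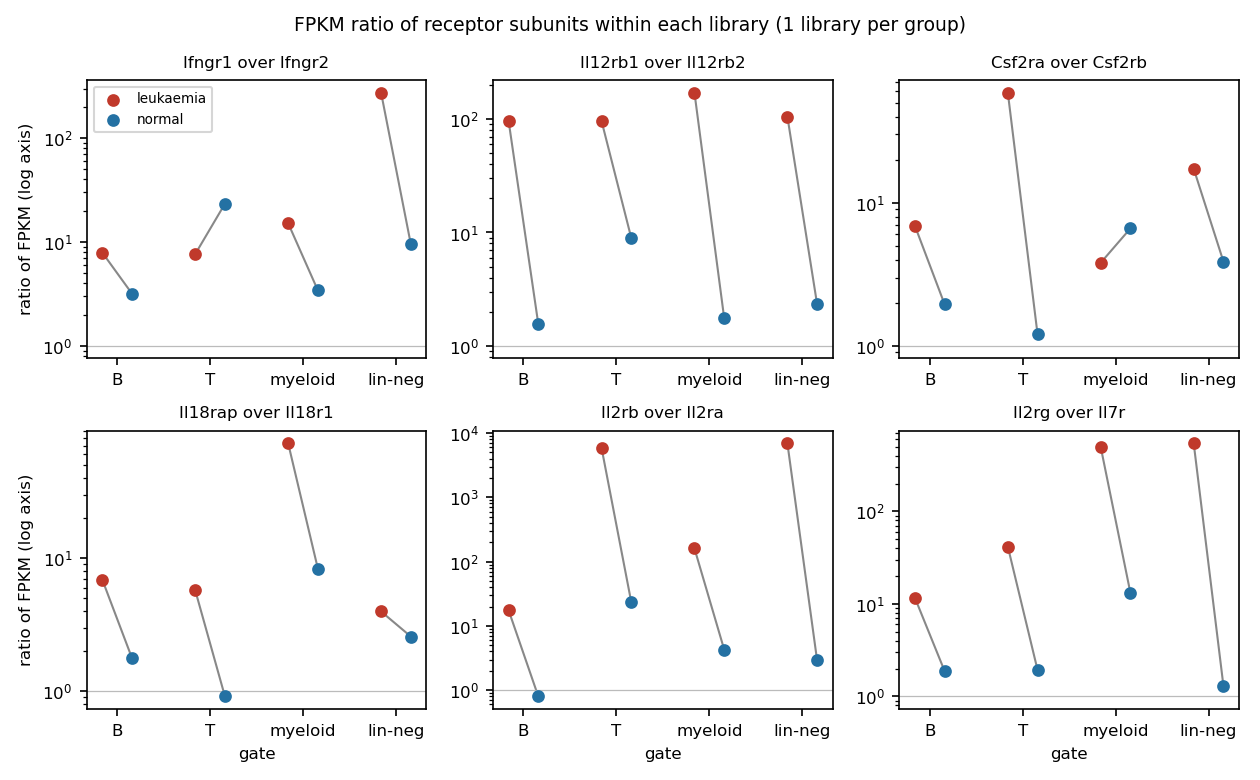
Ratio of the FPKM of receptor subunits within each library on a log axis, with leukaemia in red left of normal in blue (1 library per group). Ifngr1 over Ifngr2 was 274 in AUL and 9.54 in normal lineage-negative cells, and Il12rb1 over Il12rb2 was 96.6 or more in the leukaemias and 8.96 or less in the normal libraries.

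The IL-1 and IL-18 family had 8 of 10 genes listed, of which 6 (B-ALL), 7 (T-ALL), 7 (AML) and 8 (AUL) could be called. B-ALL had 3 higher and 0 lower, T-ALL 0 and 4, AML 1 and 5, and AUL 0 and 7. Il18r1, the IL-18 binding chain, had 3.31 FPKM in B-ALL, 0.22 FPKM in T-ALL, 0.337 FPKM in AML and 6.89 FPKM in AUL, against 4.89 FPKM in normal B, 72.8 in normal T, 14.3 in normal myeloid and 18.4 in normal lineage-negative cells. Il18rap, its accessory chain, had 22.8 FPKM in B-ALL, 1.26 FPKM in T-ALL, 24.6 FPKM in AML and 27.3 FPKM in AUL, against 8.64 FPKM in normal B, 66.4 in normal T, 119 in normal myeloid and 47.3 in normal lineage-negative cells. The 2 chains did not move as one: in AML the ratio of Il18rap to Il18r1 was 72.9 against 8.32 in normal myeloid cells, and in T-ALL both were lower, Il18r1 by 331-fold (222 to 516) and Il18rap by 52.6-fold (44.2 to 63.2). Il1r2, the decoy receptor for IL-1, had 9.8 FPKM in B-ALL, 0.437 FPKM in T-ALL, 11.2 FPKM in AML and 2.83 FPKM in AUL, against 2.34 FPKM in normal B, 1.05 in normal T, 163 in normal myeloid and 17.1 in normal lineage-negative cells. Il1rap, the accessory chain shared by IL-1, IL-33 and IL-36 receptors, had 13.1 FPKM in B-ALL, 3.28 FPKM in T-ALL, 22.3 FPKM in AML and 3.81 FPKM in AUL, against 3.79 FPKM in normal B, 6.67 in normal T, 15.6 in normal myeloid and 8.78 in normal lineage-negative cells, and was highest in AML. Il1rl2, the IL-36 receptor, had 0.447 FPKM in B-ALL, 4.37 FPKM in T-ALL, 12.5 FPKM in AML and 0.224 FPKM in AUL, against 1.83 FPKM in normal B, 3.16 in normal T, 2.35 in normal myeloid and 7.24 in normal lineage-negative cells. It was 5.33-fold (4.7 to 6.05) higher in AML and 32.3-fold (20.6 to 53.9) lower in AUL. Il1rn, the secreted antagonist, had 2.62 FPKM in B-ALL, 0.399 FPKM in T-ALL, 0.228 FPKM in AML and 0.591 FPKM in AUL, against 1.49 FPKM in normal B, 0.559 in normal T, 106 in normal myeloid and 8.61 in normal lineage-negative cells. It was 466-fold (278 to 853) lower in AML. Beside both IL-18 receptor chains, NK cell markers summed to 9.52 FPKM in T-ALL, with 1 of 5 at 1 FPKM or more, and 370 FPKM in normal T cells, with 5 of 5, and their part was not tested. Il1r1, the signalling receptor for IL-1, was at most 1.95 FPKM in any library. Il1rl1, the IL-33 receptor, was under 8 FPKM in all libraries and 16.8-fold (12.5 to 23.2) lower in AUL. It was also 71.9-fold (38.85 to 150.8) lower in T-ALL and 128-fold (35.2 to 1064) lower in AML, where it rested on 2 fragments.

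Of the IL-17 receptors 5 of 5 were listed, and 2 (B-ALL), 3 (T-ALL), 1 (AML) and 2 (AUL) could be called. Il17rb, the receptor for IL-25, had 0.932 FPKM in B-ALL, 136 FPKM in T-ALL, 0.847 FPKM in AML and 0.38 FPKM in AUL, against 6.9 FPKM in normal B, 4.46 in normal T, 0.571 in normal myeloid and 7.71 in normal lineage-negative cells. T-ALL stood alone, 30.4-fold (27.2 to 34.2) above normal T cells, and B-ALL and AUL were lower than their gates. Il17ra, the chain common to IL-17 family receptors, had 33.8 FPKM in B-ALL, 20.8 FPKM in T-ALL, 14.1 FPKM in AML and 32.8 FPKM in AUL, against 60.8 FPKM in normal B, 62.6 in normal T, 139.9 in normal myeloid and 67 in normal lineage-negative cells. It was 9.91-fold (9.53 to 10.3) lower in AML, 3.01-fold (2.9 to 3.12) lower in T-ALL and 2.04-fold (1.98 to 2.11) lower in AUL. Calls over the class were 1 lower in B-ALL, 1 higher and 2 lower in T-ALL, 1 lower in AML and 2 lower in AUL. Il17rc, Il17rd and Il17re were at most 1.32 FPKM.

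CC chemokine receptors had 10 of 11 genes listed, of which 7 (B-ALL), 9 (T-ALL), 5 (AML) and 8 (AUL) could be called. In each leukaemia 1 was higher, with 5 lower in B-ALL, 7 lower in T-ALL, 4 lower in AML and 5 in AUL. Ccr2, which leads monocytes out of the marrow in response to Ccl2, had 3.9 FPKM in B-ALL, 4.48 FPKM in T-ALL, 2.03 FPKM in AML and 0.628 FPKM in AUL, against 18.4 FPKM in normal B, 38.4 in normal T, 68.4 in normal myeloid and 98.6 in normal lineage-negative cells. The leukaemias lay at 0.628 to 4.48 FPKM and the normal libraries at 18.4 to 98.6 FPKM, with no overlap. The fit had picked Ccr2, too, from these same libraries. Ccr2 was 4.71-fold (4.31 to 5.16) lower in B-ALL, 8.58-fold (7.93 to 9.3) lower in T-ALL, 33.8-fold (30.1 to 37.9) lower in AML and 157-fold (126 to 199) lower in AUL. Monocyte and macrophage markers, with all 6 at 1 FPKM or more in B-ALL and the normal B, myeloid and lineage-negative libraries, summed to 102.5 (B-ALL), 21.5 (T-ALL), 41.6 (AML) and 16.4 (AUL) FPKM, against 217 in normal B, 36.7 in normal T, 269 in normal myeloid and 249.6 in normal lineage-negative cells. The 6 include Csf1r, itself one of the receptor genes, at 56.1 FPKM in normal myeloid and 53.7 in normal lineage-negative cells. They also include Cx3cr1, counted below among other chemoattractant receptors. Of the 6, 4 reached 1 FPKM in T-ALL and in normal T cells, and 2 in AML and in AUL, and the part of these markers was not tested. Ccr1, a receptor for Ccl3 and Ccl5, had 7.09 FPKM in B-ALL, 0.613 FPKM in T-ALL, 0.159 FPKM in AML and 1.0 FPKM in AUL, against 1.96 FPKM in normal B, 2.62 in normal T, 108 in normal myeloid and 15.7 in normal lineage-negative cells. In AML it was 684-fold (438 to 1136) lower and in B-ALL 3.62-fold (3.12 to 4.22) higher.

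Ccr7, which draws lymphocytes into lymph nodes, had 17.4 FPKM in B-ALL, 3.94 FPKM in T-ALL, 0.0478 FPKM in AML and 6.92 FPKM in AUL, against 71.8 FPKM in normal B, 128 in normal T, 0.435 in normal myeloid and 4.43 in normal lineage-negative cells. It was 4.12-fold (3.89 to 4.37) lower in B-ALL and 32.5-fold (29.1 to 36.3) lower in T-ALL, and AUL did not reach the call. Ccr6, the receptor for Ccl20, had 0.163 FPKM in B-ALL, 0.0323 FPKM in T-ALL, 0 FPKM in AML and 0.0206 FPKM in AUL, against 16 FPKM in normal B, 5.62 in normal T, 0.0534 in normal myeloid and 0.0941 in normal lineage-negative cells. Ccr9, which leads cells to the gut and thymus, had 0.172 FPKM in B-ALL, 0.122 FPKM in T-ALL, 0.0374 FPKM in AML and 0.0624 FPKM in AUL, against 35.8 FPKM in normal B, 14.2 in normal T, 0.156 in normal myeloid and 1.89 in normal lineage-negative cells. These 2 were close to 0 in the leukaemias. Ccr9 is also a gene of plasmacytoid dendritic cells and is itself among the 5 markers used for them. The sums and counts of these markers therefore include Ccr9. The markers summed to 145 FPKM in the B-ALL library, with 5 of 5 called lower, and 1506 FPKM in normal B cells. In T-ALL they summed to 102 FPKM, with 3 of 5 called lower, Ccr9 among them, and in normal T cells to 209 FPKM. The B cell markers were also lower in T-ALL, with 6 of 6 called, than in normal T cells. The part of these cells in the Ccr6 and Ccr9 differences was not tested. Ccr4, the receptor for Ccl17 and Ccl22, had 0.0773 FPKM in B-ALL, 50.8 FPKM in T-ALL, 0.376 FPKM in AML and 2.27 FPKM in AUL, against 0.0997 FPKM in normal B, 5.82 in normal T, 0 in normal myeloid and 0 in normal lineage-negative cells. T-ALL was 8.72-fold (7.78 to 9.8) above normal T cells and AUL, with 116 fragments against 0, at least 50.9-fold above its gate. Ccr3, Ccr8 and Ccr10 stayed under 3 FPKM.

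CXC chemokine receptors had 6 of 7 genes listed, of which 4 (B-ALL), 5 (T-ALL), 4 (AML) and 4 (AUL) could be called. Calls in B-ALL were 1 higher and 3 lower, in T-ALL 0 and 4, in AML 0 and 3 and in AUL 2 and 1. Cxcr4, the receptor for Cxcl12 that holds blood-forming cells in the marrow, had 101 FPKM in B-ALL, 100.4 FPKM in T-ALL, 84.7 FPKM in AML and 160.5 FPKM in AUL, against 438 FPKM in normal B, 272 in normal T, 296 in normal myeloid and 292 in normal lineage-negative cells. The leukaemias, at 84.7 to 160.5 FPKM, all lay below the normal libraries, at 272 to 438 FPKM, and AUL alone did not reach 2-fold within its gate. Cxcr2, the receptor for neutrophil chemokines, had 16.5 FPKM in B-ALL, 1.12 FPKM in T-ALL, 0.287 FPKM in AML and 2.25 FPKM in AUL, against 4.31 FPKM in normal B, 5.44 in normal T, 329 in normal myeloid and 30.4 in normal lineage-negative cells. It was 1144-fold (810.4 to 1673) lower in AML and 3.83-fold (3.46 to 4.26) higher in B-ALL. Cxcr3, the receptor for interferon-induced chemokines, had 1.97 FPKM in B-ALL, 77.4 FPKM in T-ALL, 1.13 FPKM in AML and 37.4 FPKM in AUL, against 9.82 FPKM in normal B, 61.7 in normal T, 0.773 in normal myeloid and 3.3 in normal lineage-negative cells. It was 11.3-fold (9.95 to 13) higher in AUL and 4.99-fold (4.17 to 6.01) lower in B-ALL. Cxcr5, which leads B cells and follicular T cells to follicles, had 2.94 FPKM in B-ALL, 1.24 FPKM in T-ALL, 0.852 FPKM in AML and 17.3 FPKM in AUL, against 52 FPKM in normal B, 13.3 in normal T, 0.233 in normal myeloid and 1.79 in normal lineage-negative cells. Cxcr5 was 9.66-fold (8.11 to 11.6) higher in AUL and 17.7-fold (15.5 to 20.4) lower in B-ALL. Cxcr6, the receptor for Cxcl16, had 0.368 FPKM in B-ALL, 0.158 FPKM in T-ALL, 0.273 FPKM in AML and 0.233 FPKM in AUL, against 0.488 FPKM in normal B, 30.4 in normal T, 0.211 in normal myeloid and 0.958 in normal lineage-negative cells. Cxcr6 was 192-fold (112 to 361) lower in T-ALL. Cxcr1, a second receptor for neutrophil chemokines, rested on 1 fragment in AML and was 4.68 FPKM in normal myeloid cells.

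**Figure D4:**
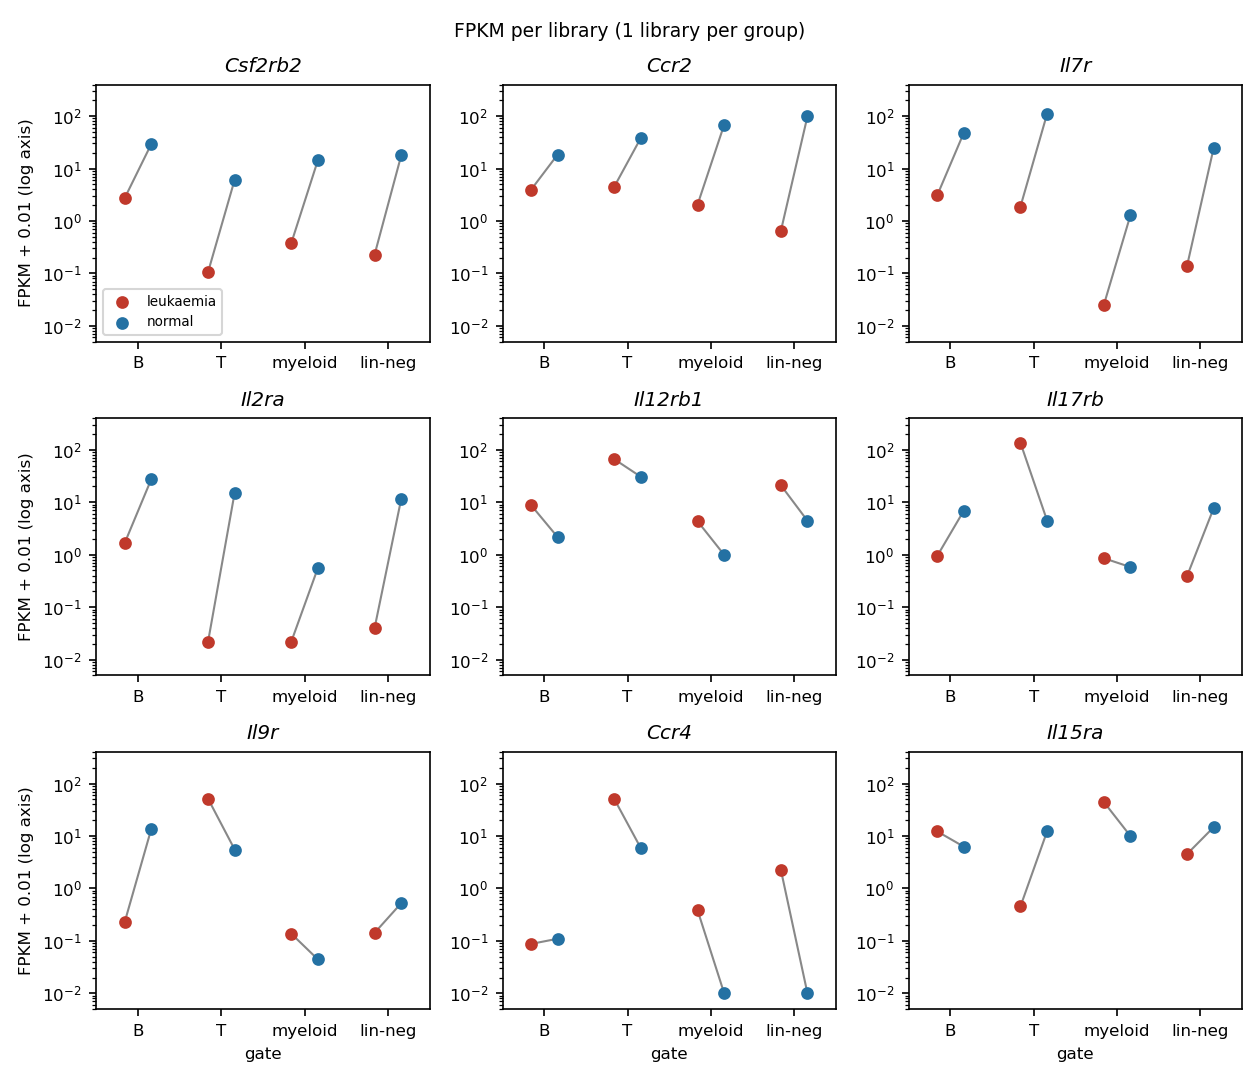
FPKM (plus 0.01, log axis) in the B, T, myeloid and lineage-negative gates, with leukaemia in red left of normal in blue and a line between them (1 library per group). Csf2rb2, Ccr2, Il7r and Il2ra are lower in each leukaemia and Il12rb1 is higher in each, whereas Il17rb, Il9r and Ccr4 are highest in T-ALL and Il15ra is highest in AML.

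Some receptor levels lay beyond every normal population. T-ALL had 4 of 58 receptor genes at least 2-fold above all 4 normal libraries, Il17rb, Il9r, Ccr4 and Il12rb1, and 14 below all 4, where 6.96% and 6.91% of all genes were. AML had 1 of 57 above, Il15ra, and 12 below, beside 7% and 8.78% of all genes. AUL had 0 of 57 above and 8 below, beside 6.15% and 6.77%. B-ALL had 0 of 57 above and 2 below, Ccr2 and Cxcr4, beside 5.32% and 2.49%. The shares of receptor genes above all 4 normal libraries, 6.90% in T-ALL and 1.75% in AML, did not exceed those of all genes. The shares below, 24.14% (T-ALL), 21.05% (AML), 14.04% (AUL) and 3.51% (B-ALL), did. Ccr2 was below all 4 normal libraries in each leukaemia.

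Markers of other cell types were also higher in B-ALL, AML and AUL. In B-ALL the 7 receptor genes called higher were Ccr1, Csf3r, Cxcr2, Il12rb1, Il18rap, Il1r2 and Il1rap. All 7 neutrophil markers were above 1 FPKM in both libraries and summed to 11359 FPKM in the B-ALL library and 2783 FPKM in normal B cells. All 6 T cell markers were called higher in B-ALL too, summing to 267 FPKM in the B-ALL library and 42.9 FPKM in normal B cells. In AML 5 of the 6 T cell markers were called higher, with sums of 44.5 FPKM in AML and 15.0 FPKM in normal myeloid cells. In AUL the 8 called higher were Ccr4, Cxcr3, Cxcr5, Il12rb1, Il21r, Il27ra, Il2rb and Il2rg. All 6 T cell markers were above 1 FPKM in both libraries, at 1714 FPKM in AUL and 50.6 FPKM in normal lineage-negative cells. The part of these cells in the calls was not tested.

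Many of the genes lie side by side. Of the 62, 32 fell in 10 clusters with gaps of at most 200 kb, by GENCODE coordinates on GRCm38. One holds Il1r2, Il1r1, Il1rl2, Il1rl1, Il18r1 and Il18rap at chr1:40074079-40551705 (478 kb). Neighbours in some clusters had different patterns. The adjacent Csf2rb2 and Csf2rb on chromosome 15, which share sequence, were both called lower in 4 of 4 gates. Il2rb, in the same cluster, was called higher in AUL, lower in T-ALL and in neither direction in B-ALL and AML. In AML, Il18r1 was 42.4-fold (30.5 to 60.7) lower while Il1rl2 was 5.33-fold (4.7 to 6.05) higher. On chromosome 16 Ifnar2, Il10rb, Ifnar1 and Ifngr2 lie within 192 kb, and in AUL Ifngr2 was the only one of them called lower. On chromosome 2 Il2ra and Il15ra lie within 92 kb, and in AML Il2ra was at 0.012 FPKM and Il15ra at 44.6 FPKM.

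Among signalling genes behind the receptors, more were called lower than higher, save for the IL-1 and IL-17 receptor adaptors in T-ALL, with 1 of each. Of 8 listed JAK kinases and STAT factors, 5 were lower in B-ALL, 6 were lower in T-ALL, 8 lower in AML and 4 in AUL, and 1 was higher, Stat4 in AUL, with 24.0 FPKM in AUL and 8.39 in normal lineage-negative cells. Jak1, a kinase used by many cytokine and interferon receptors, was called lower in B-ALL, T-ALL and AML, with 68.4 FPKM in AML and 300.4 in normal myeloid cells, and in neither direction in AUL, with 280.4 FPKM in AUL and 198.6 in normal lineage-negative cells. Of 8 listed feedback inhibitors, 7 (B-ALL), 8 (T-ALL), 6 (AML) and 8 (AUL) could be called. Of these, 3 were lower in B-ALL and 4 each in T-ALL, AML and AUL, with 1 higher in AML. Socs3, an inhibitor induced by STAT3, was 0.776 FPKM in AML and 101 in normal myeloid cells, and 1.65 in T-ALL and 149.9 in normal T cells. Of 17 listed genes of chemokine receptor signalling, all could be called save in AML, with 16. Of these, 7 were lower in B-ALL, 7 were lower in T-ALL, 14 lower in AML and 6 in AUL, with 1 higher in T-ALL. Rgs1, which shortens G protein signals, was 0.0109 FPKM in T-ALL and 76.5 in normal T cells. Of 6 listed IL-1 and IL-17 receptor adaptors, 2 were lower in B-ALL, 1 was lower in T-ALL, 3 lower in AML and 2 in AUL, and 1 each was higher in T-ALL, AML and AUL. Of 11 other cytokine receptors, among them Kit and Flt3, 10 (B-ALL), 9 (T-ALL), 8 (AML) and 11 (AUL) could be called. Of these, 4 were lower in B-ALL, 4 were lower in T-ALL, 5 lower in AML and 6 in AUL, with 1 higher in T-ALL and 1 in AML. Kit, the receptor for stem cell factor, was 53.4 FPKM in AML and 17.0 in normal myeloid cells. The JAK kinases, STAT factors and adaptors could all be called. Of all genes that could be called, 21.9% were lower and 18.2% higher in B-ALL, and 24% and 22.1% in T-ALL. In AML 26.7% were lower and 43.3% higher, and in AUL 29.5% and 13.6%. Some counts lay near or under these shares, such as 6 of 17 chemokine signalling genes lower in AUL and 1 of 6 adaptors lower in T-ALL.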

How the data were processed

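RNA-seq of 8 libraries, 1 per group, was analysed from the authors' deposited table of FPKM for 16434 genes, which does not say how genes were selected for it. Per the labels' protocols, poly(A) RNA from Trizol extracts was random-primed and sequenced as read pairs, reads with adaptor sequence or undetermined bases had been discarded, and FPKM were computed. Per the submitters' processing notes the build was mm10, and the tools named are STAR, HTSeq and edgeR; versions and strand handling are not given in the sources used here.

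From these values, fragments were recovered with GENCODE vM21 mean transcript lengths: 95.1% to 95.9% of low values of single-transcript genes were whole within 0.02 of a fragment. For genes with several transcripts they are approximate. Fold intervals (95%, exact) and the floor of 3 fragments per library cover counting error only. Log2 values used a pseudocount of 1.

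The fit over the gates used limma 3.58.1 in R 4.3.3, with a trend, the gate as a block of 4 levels, 3 residual degrees of freedom, genes with at least 1 FPKM in at least 2 libraries, and Benjamini-Hochberg adjustment over all genes. It was tested on simulated data. The pairing comes from the shared gate, not from animals; deviations of paired libraries correlated at 0.37 (B), 0.41 (T), 0.36 (myeloid) and -0.23 (lineage-negative) across genes. Its p-values measure only the spread between these libraries. Receptor genes with at least 10 FPKM in some library (46) are named with all values, save 1 that counts among the members and is not reported here. Members and lists were chosen with earlier results of these data known. Promoter windows came from RefSeq and shared words from GENCODE transcripts (75 bases). Protein sequences were not used here.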

Additional observations from a re-analysis of the deposited data

Results flagged for a closer look

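Of the 46 receptor genes with at least 10 FPKM in some library, 19 were called higher in one leukaemia and lower in another. Each value here is the highest minus the lowest log2 difference over the 4 gates. These differences between gates were not tested, since each rests on 1 library per group.

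Some genes were higher in B-ALL and lower in another leukaemia. Spans between B-ALL and AML were 9.72 for Cxcr2, 8.01 for Ccr1 and 5.44 for Il1r2. The span was 6.20 for Il18rap, between B-ALL and T-ALL. Between B-ALL and AUL it was 5.26 for Csf3r and 2.59 for Il1rap. Neutrophil markers were also higher in B-ALL and lower in AML than in the normal gate, and their part was not tested.

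Genes higher in T-ALL and lower elsewhere were Il17rb, with a span of 7.30, and Csf2ra with 5.16, both between T-ALL and AUL. Il9r had 6.61 between T-ALL and B-ALL, and Ifnlr1 6.33 between T-ALL and AML. Genes higher in AML and lower elsewhere were Il15ra with 5.26, between AML and T-ALL, and, between AML and AUL, Il1rl2 with 4.76 and Il11ra1 with 3.37.

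Some genes were higher in AUL and lower elsewhere. Spans between AUL and B-ALL were 6.47 for Cxcr5, 5.04 for Il21r, 5.03 for Cxcr3 and 3.89 for Il27ra. Spans between AUL and T-ALL were 4.95 for Il2rb and 2.55 for Il2rg. T cell markers were higher in AUL than in normal lineage-negative cells, and their part was not tested.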

How the results depend on the processing

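Counts of receptor genes called within gates stayed within 1.5 times under each alternative tried (pseudocount 0.1, no filter, at least 5 FPKM, median-ratio scaling, columns scaled to the same sum), except that receptor genes higher in AML numbered 3 with at least 5 FPKM and 2 with median-ratio scaling, against 5. Over the gates the limma counts depended on each choice; the cause was not tested. Receptor genes lower, 4 as reported, numbered 10 with a pseudocount of 0.1, 0 with no filter, 9 with at least 1 FPKM in 4 libraries, 10 with median-ratio scaling, 2 with columns scaled to the same sum, 1 without the gate as a block (no replicate block), and 0 to 3 with 1 pair left out. Those higher stayed at 0 throughout. Over all genes, in the same order, 268 lower became 530, 0, 540, 561, 137, 33 and 0 to 162, and 140 higher became 309, 3, 413, 351, 33, 8 and 0 to 11. No called receptor gene changed sign under the alternatives run; of 920 gate differences 186 moved beyond their counting interval, and 23 of 441 limma results lost and 14 gained a call. Median-ratio scaling moved the median of all genes that could be called from -0.02 to -0.13 in B-ALL, 0.03 to -0.14 in T-ALL and -0.18 to 0.02 in AUL. With 1 library per group, levels near the floor, as for Il2ra in T-ALL, limit what can be compared.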

Other observations

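Genes for ligands of these receptors were counted by the same calls, and 27 were listed. Of those that could be called, 6 of 16 were lower and 2 higher in B-ALL, 18 of 19 lower and 1 higher in T-ALL, 15 of 18 lower and 1 higher in AML, and 14 of 19 lower and 0 higher in AUL. Of all genes that could be called, 21.9% were lower and 18.2% higher in B-ALL, 24% and 22.1% in T-ALL, 26.7% and 43.3% in AML, and 29.5% and 13.6% in AUL. Ccl5, a ligand of Ccr1, was 0.926 FPKM in T-ALL and 1236 FPKM in normal T cells. Ccl3, a ligand of the same receptor, was 0.502 FPKM in AUL and 325 FPKM in normal lineage-negative cells. Il1b was 0.351 FPKM in AML and 678 FPKM in normal myeloid cells.

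Other chemoattractant receptors, outside the symbol rule, were also compared. Of 11 listed, 2 of the 7 that could be called were lower and 3 higher in B-ALL, 4 of 6 lower in T-ALL, 6 of 7 lower in AML and 6 of 7 lower in AUL, beside the same shares of all genes. C5ar1, the receptor for complement C5a, was 1.79 FPKM in AML and 280 FPKM in normal myeloid cells, and 14.8 FPKM in B-ALL and 2.22 FPKM in normal B cells. S1pr1, which lets lymphocytes leave tissues, was 0.973 FPKM in T-ALL and 96.8 FPKM in normal T cells.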
